A study of Mus musculus with 19 samples.

Results

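Retinoid handling genes were examined in RNAseq data of hippocampal astrocytes and of the other cells sorted with them. The 9 genes were *Rgr*, *Rlbp1*, *Rdh5*, *Rdh10*, *Dhrs3*, *Aldh1a1*, *Aldh1a2*, *Rxra* and *Rarb*, each found by its symbol on 1 of the 60567 listed genes. The set was chosen with earlier results of these samples known, and *Rgr* was selected on its normalized mRNA levels across these groups. Levels of *Rgr* are therefore given as a description without a test, and tests are given for the other 8 members.

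The samples came from male mice of the C57bl6 strain, 9 months old, injected in the hippocampus with adeno-associated vectors (AAV) under the gfaABC1D promoter, a short form of the *GFAP* promoter that is active in astrocytes. WT-GFP mice (7 samples of GFP+ astrocytes) were non-transgenic littermates that received AAV-GFP. APP-GFP mice (4 samples) received the same vector and were transgenic, with a chimeric mouse/human *App* that carries the Swedish mutations among their transgenes, and these mice develop amyloid plaques. APP-SOCS3 mice (5 samples) carried the same transgenes and received AAV-SOCS3 together with AAV-GFP at the same total viral load. SOCS3 is an inhibitor of the JAK-STAT3 pathway, and since it was on a separate vector a GFP+ cell did not have to carry it. GFP- cells (3 samples) were collected from WT-GFP mice. The study describes them as microglia, neurons, oligodendrocyte precursor cells and astrocytes that were not infected. GFP+ samples are counted as mice in the study, although hippocampi of a mouse were sorted independently. Whether GFP- samples came from the same mice as WT-GFP astrocytes is not stated, and *p* values measure the spread between these samples. In such bulk samples, fewer cells of a type and less RNA per cell cannot be told apart.

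Retinoids are made from vitamin A. Retinol is taken up by cells, oxidised to retinaldehyde by retinol dehydrogenases and then to retinoic acid by aldehyde dehydrogenases of the Aldh1a family, and retinoic acid activates nuclear receptors (RAR) that bind DNA as dimers with retinoid X receptors (RXR). In the eye, another branch of the pathway, the visual cycle, isomerises and recycles retinaldehyde for opsins in the pigment epithelium and in Müller glia, the radial glia of the retina. In the adult brain, the meninges are a known source of retinoic acid.

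Each member stood on a protein-coding gene of mm10 in the annotation of the authors. *Rgr* (chr14:37034918-37049014) encodes an opsin-like protein that binds retinaldehyde and acts in its photoisomerisation. *Rlbp1* (chr7:79374869-79387028) encodes the retinaldehyde-binding protein CRALBP of pigment epithelium and Müller glia. *Rdh5* (chr10:128913590-128919298) encodes a dehydrogenase of cis-retinol. *Rdh10* (chr1:16105774-16132550) encodes the enzyme that oxidises retinol to retinaldehyde for retinoic acid synthesis. *Dhrs3* (chr4:144892827-144928209) encodes the reductase of the opposite step. *Aldh1a1* (chr19:20601968-20643463) and *Aldh1a2* (chr9:71215789-71296243) encode retinaldehyde dehydrogenases, and the latter is the main enzyme of retinoic acid synthesis in the embryo. *Rxra* (chr2:27677198-27763319) encodes retinoid X receptor alpha. *Rarb* (chr14:16430839-17082331) encodes retinoic acid receptor beta, a known target of retinoic acid itself. Entries that overlap another entry were *Dhrs3* (2 entries, highest mean level 7.01), *Aldh1a1* (1 entry, 2.58) and *Rarb* (4 entries, highest 56.8), and use of the strand in counting is not stated, so the level of *Rarb* is the least certain of these.

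RefSeq windows of 250 bases before to 50 bases after a start site (GRCm38.p6, the build of the files) were found for 8 of the 9 members, 12 windows in all. They are shown for *Rarb*, because it holds the matches described next, and for *Rgr* and *Aldh1a2*, the members that differed most between GFP+ groups. Sequences run 5′ to 3′ on the strand of the gene. The *Rarb* window is chr14:16575427-16575726 on the minus strand, the *Rgr* window is chr14:37048965-37049264 on the minus strand, and the *Aldh1a2* window is chr9:71215539-71215838 on the plus strand. Capitals mark matches to the motifs searched.
Rarb: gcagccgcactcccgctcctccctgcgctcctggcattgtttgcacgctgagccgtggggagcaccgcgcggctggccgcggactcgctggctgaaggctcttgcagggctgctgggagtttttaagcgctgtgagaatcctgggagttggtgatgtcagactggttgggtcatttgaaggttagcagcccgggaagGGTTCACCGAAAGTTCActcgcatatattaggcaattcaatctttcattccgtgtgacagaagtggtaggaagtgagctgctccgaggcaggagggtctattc
Rgr: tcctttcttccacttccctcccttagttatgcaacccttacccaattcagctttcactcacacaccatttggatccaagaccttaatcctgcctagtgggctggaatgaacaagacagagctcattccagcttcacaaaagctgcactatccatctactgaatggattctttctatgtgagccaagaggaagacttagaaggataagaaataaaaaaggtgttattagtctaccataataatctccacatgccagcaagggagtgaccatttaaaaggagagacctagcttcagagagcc
Aldh1a2: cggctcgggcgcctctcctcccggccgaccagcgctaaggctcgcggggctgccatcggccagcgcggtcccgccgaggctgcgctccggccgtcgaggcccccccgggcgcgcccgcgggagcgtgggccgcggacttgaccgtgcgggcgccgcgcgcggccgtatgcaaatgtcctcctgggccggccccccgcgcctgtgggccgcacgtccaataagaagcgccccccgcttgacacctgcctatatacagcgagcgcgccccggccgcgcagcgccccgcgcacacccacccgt

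Motifs were searched on both strands. A retinoic acid response element was written as a pair of half-sites in the same direction, with 1 (DR1), 2 (DR2) or 5 (DR5) bases between them, and a STAT motif as TTCNNNGAA, which reads the same on both strands. The half-site could be AGGTCA, could differ from it as AGTTCA does, or could be either of these with a first G, which gives the half-site GGGTCA in the former case and the half-site GGTTCA in the latter. The *Rarb* window holds a DR5 match, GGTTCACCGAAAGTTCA, that begins 53 bases before the start site. A STAT match, TTCACCGAA, lies inside it and begins 51 bases before the start. The other 11 windows of members held no match to these letters. Of all 32851 windows, 0.0974% (32 windows) held a DR5 match, 0.222% a DR1 match, 0.268% a DR2 match and 8.30% a STAT match. These matches are descriptions of the letters, and binding at them was not measured in these data.

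Each sample had 19331876 to 32621917 reads on genes. Values are normalized mRNA levels, the reads divided by a size factor for each sample, so that 1 read was worth 0.756 to 1.18 units. PCR-amplified reads are not independent molecules, and limits set from reads cover counting error only. In 4 libraries, WT-GFP replicates 1, 2 and 3 and APP-GFP replicate 2, fewer than 20000 genes were above 0 (15575 to 19198), while the other 12 libraries of GFP+ astrocytes had 21602 to 26757 and GFP- cells 30807 to 31897. Results of members that rest on these libraries are given without them as well, while other genes are given with all libraries only. Summed levels of 15 astrocyte markers ranged from 734285 to 1284540 over GFP+ samples, against 27952 to 93644 over GFP- samples. GFP- samples also held RNA of vascular cells, which the description by the study does not name. Their sums were 144657 to 231912 for 10 endothelial, 123386 to 161573 for 10 mural and 4170 to 7333 for 10 neuronal markers. *Socs3* levels were 13296 to 37750 in APP-SOCS3, 438 to 1639 in APP-GFP and 458 to 1208 in WT-GFP astrocytes. *App* levels were 3663 to 11151 in APP-GFP, 2633 to 6011 in APP-SOCS3 and 1735 to 5624 in WT-GFP astrocytes, so that this gene did not separate APP-SOCS3 from WT-GFP samples.

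Among astrocytes of WT-GFP mice, the most abundant members per length were *Dhrs3*, *Aldh1a1* and *Rlbp1*. Mean levels per kb of merged exons (GENCODE M21) were 1528 for *Dhrs3*, 900 for *Aldh1a1*, 769 for *Rlbp1*, 281 for *Rdh5*, 134 for *Rdh10*, 60.0 for *Aldh1a2*, 28.3 for *Rxra* and 18.1 for *Rarb*, and *Rgr* was listed at 0. The ranges of all 8 pairs of neighbours in this order overlapped. *Rdh5* was above *Rdh10*, and *Rdh10* above *Aldh1a2*, in 7 of 7 samples, while *Dhrs3* was above *Aldh1a1* in 5 of 7. The same 5 genes led in the same order in APP-GFP and APP-SOCS3 astrocytes. In GFP- cells the order was *Rlbp1* (1009 per kb), *Rdh5* (523), *Dhrs3* (446), *Aldh1a2* (199), *Aldh1a1* (190), *Rdh10* (106), *Rxra* (93.6), *Rarb* (30.9) and *Rgr* (1.51). Reads were counted on constitutive regions, while these lengths cover all merged exons, so levels per kb are approximate. Undivided means in WT-GFP astrocytes were 4472 for *Dhrs3* and 4442 for *Aldh1a1*, and 136 for *Aldh1a2* and 155 for *Rxra*. The gap in the former pair and the order in the latter thus rest on the lengths.

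*Rgr* was detected in every APP-SOCS3 sample and in no WT-GFP astrocyte sample. In the 7 WT-GFP samples of GFP+ astrocytes it had 0 reads. In APP-GFP astrocytes its levels were 0, 0, 0 and 34.9, the last from 40 reads in replicate 4. In APP-SOCS3 astrocytes levels of *Rgr* were 26.5, 33.5, 52.0, 5.88 and 63.3, from 24, 36, 52, 6 and 72 reads, with a mean of 36.2 ± 22.4 (SD, n = 5). All APP-SOCS3 samples were thus above all WT-GFP samples, while the single APP-GFP sample with reads lay within the APP-SOCS3 range. In GFP- cells of WT-GFP mice levels were 16.3, 0 and 5.30, so that reads of *Rgr* were also present in 2 of the 3 samples of other cells.

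Against a floor of 3 reads per library (a mean level of 3.04 in WT-GFP astrocytes), the mean of *Rgr* was at least 11.9-fold higher in APP-SOCS3 than in WT-GFP astrocytes. In APP-GFP astrocytes the mean of 8.72 was at least 2.87-fold higher, and it rests on replicate 4 alone. The highest *Rgr* level and the highest *Socs3* level were in different APP-SOCS3 samples, and the part of *Socs3* in the level of *Rgr* was not tested. *Socs3* was 37750 in APP-SOCS3 replicate 2, where *Rgr* was 33.5, and 16050 in replicate 5, where *Rgr* was 63.3. In APP-GFP replicate 4, *Socs3* was 1090, between 438 and 1639 in the other APP-GFP samples. Even in APP-SOCS3 astrocytes *Rgr* had 7.57 per kb, the lowest mean level of the members but *Aldh1a2*.

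**Figure D1:**
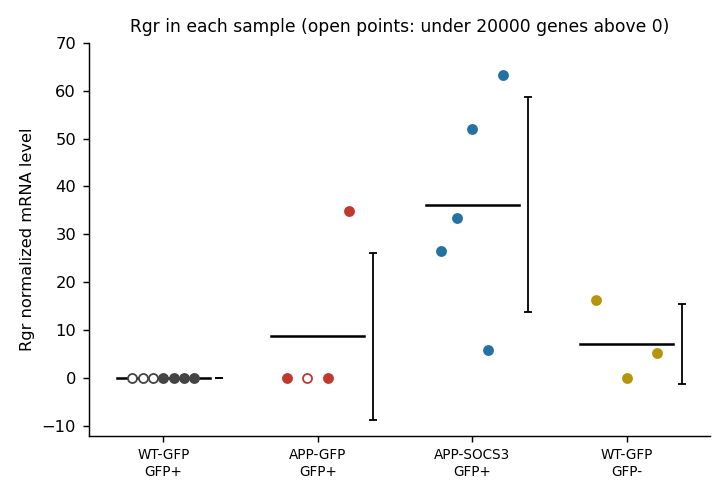
Normalized mRNA levels of *Rgr* (vertical axis) in each of the 19 samples by group (horizontal axis), with the group mean as a line and the SD as a bar, and open points for the 4 libraries with fewer than 20000 genes above 0. The 5 APP-SOCS3 samples sit between 5.88 and 63.3, the 7 WT-GFP astrocyte samples at 0, and APP-GFP replicate 4 at 34.9.

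Astrocytes and GFP- cells of WT-GFP mice were compared to ask which retinoid genes mark astrocytes. *Dhrs3* and *Aldh1a1* were higher in astrocytes and *Rdh5* was lower. The test was limma on log2(level + 1), for genes whose mean reached 10 in 1 of the 2 groups, and a gene was called when its unadjusted *p* did not exceed 0.05 and its change was 1.5-fold or more. Of 26709 genes tested, 9.25% were called higher and 33.5% lower in astrocytes, with a median over all of them of -1.31 on the log2 scale. Of the called genes 21.6% were thus higher, a share that was 10.8% with equal upper quartiles, 38.7% with edgeR and 35.4% with DESeq2. Of the 8 members tested 2 were called higher and 1 lower, with a median of -0.68, and the same 3 had an adjusted *p* (Benjamini-Hochberg) under 0.05. Since the smallest *p* of an exact permutation test with 7 against 3 samples is 0.0167, it is given for groups that do not overlap. The share of all genes whose groups do not overlap was not counted in any comparison. A lack of overlap is thus a description and is not read as particular to the genes named.

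*Aldh1a1*, which makes retinoic acid from retinaldehyde, had 2487 to 6708 (median 4411) in astrocytes and 916, 1164 and 729 in GFP- cells. Astrocyte samples were all above GFP- samples, with a log2 fold change of 2.19 ± 0.32 (SE, limma, adjusted *p* = 0.000403, exact permutation *p* = 0.0167). *Dhrs3*, which turns retinaldehyde back to retinol, had 2758 to 5653 (median 4616) in astrocytes and 1497, 1275 and 1144 in GFP- cells. It did not overlap either, with a log2 fold change of 1.75 ± 0.23 (SE, limma, adjusted *p* = 0.000179, exact permutation *p* = 0.0167). Reads of *Aldh1a1* and of its close copy *Aldh1a7* may have been shared, but *Aldh1a7* had at most 3.93 in WT-GFP astrocytes and 9.72 in GFP- cells.

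*Rdh5*, the dehydrogenase of cis-retinol, went the other way. It had 457 to 1031 (median 841) in astrocytes and 1743, 1089 and 1577 in GFP- cells, without overlap. Its log2 fold change was -0.92 ± 0.30 (SE, limma, adjusted *p* = 0.0355, exact permutation *p* = 0.0167), smaller in size than the median of all genes. *Rlbp1* had 944 to 3958 (median 2208) in astrocytes and 2961, 3980 and 1998 in GFP- cells, and the groups overlapped (log2 fold change -0.44, 95% interval -1.26 to 0.38). *Rdh10* overlapped as well, with 301 to 783 (median 584) against 730, 312 and 278 (0.42, interval -0.45 to 1.28). The direction of *Rdh10* turned with equal upper quartiles (-0.047).

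*Aldh1a2*, *Rxra* and *Rarb* had low levels in astrocytes, and these levels varied with the library. *Aldh1a2* was 0, 125, 0, 155, 211, 207 and 252 in WT-GFP replicates 1 to 7 and 383, 551 and 414 in GFP- cells. *Rxra* was 159, 4.54, 0, 206, 366, 53.9 and 294 in astrocytes and 658, 407 and 468 in GFP- cells. For both genes all astrocyte samples were below all GFP- samples (exact permutation *p* = 0.0167). The fits were wide and made no call, with log2 fold changes of -3.41 (95% interval -7.70 to 0.87) for *Aldh1a2* and -3.26 (-7.05 to 0.53) for *Rxra*.

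*Rarb* was 20.5, 0, 0, 161, 169, 147 and 168 in astrocytes and 326, 82.4 and 80.4 in GFP- cells, which overlapped (-2.20, interval -6.38 to 1.98). The zeros and the lowest values of these 3 genes fell mostly in WT-GFP replicates 1, 2 and 3, the libraries with fewer than 20000 genes above 0. Without these 3 libraries the log2 fold change was -1.12 for *Aldh1a2* (limma, adjusted *p* = 0.0151), -1.42 for *Rxra* (limma, adjusted *p* = 0.105) and 0.31 for *Rarb*, whose direction turned. *Aldh1a2* was then called, with 4 members called in all. The part of the low number of detected genes in these differences was not tested.

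**Figure D2:**
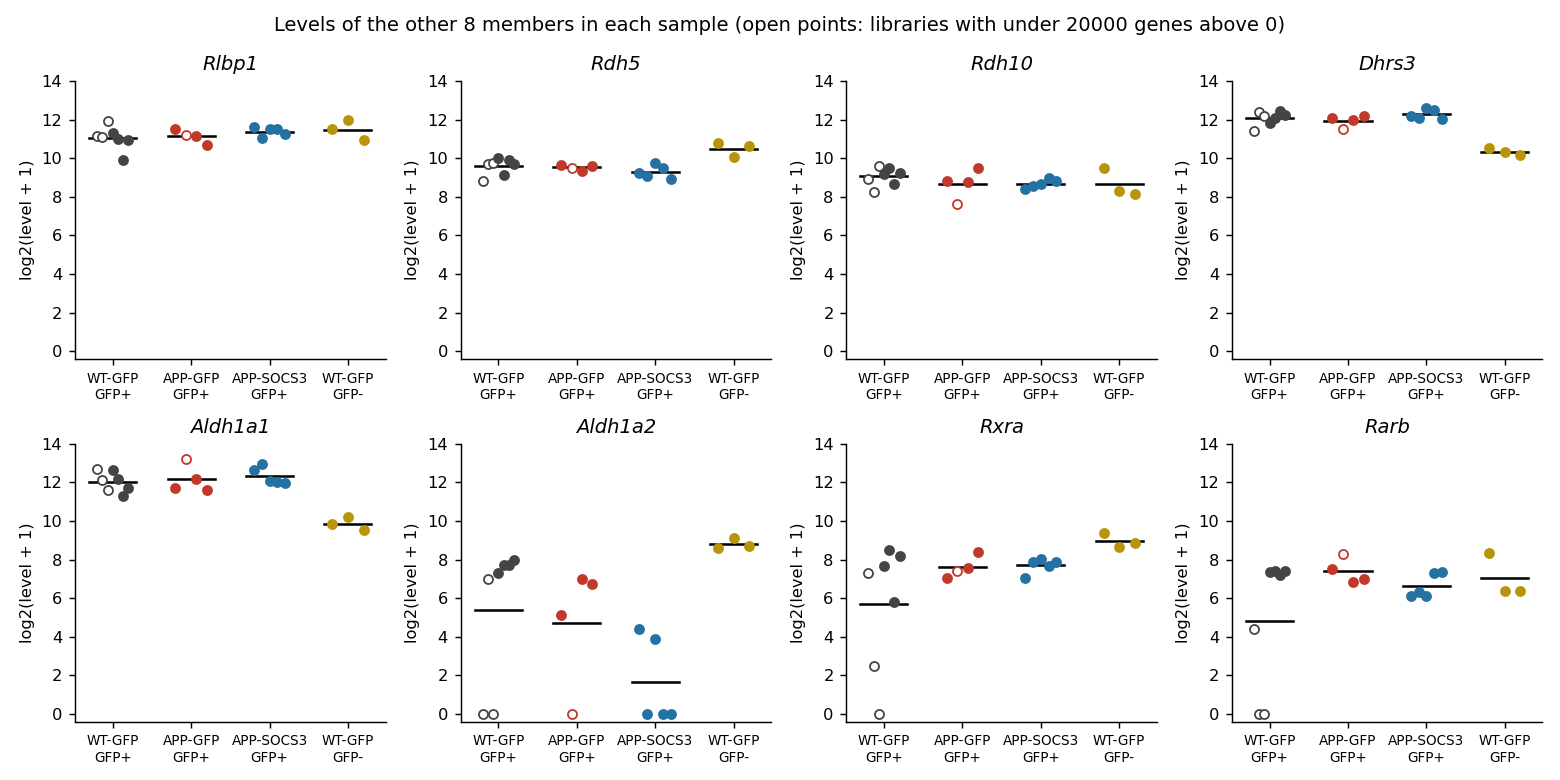
Levels of the other 8 members as log2(level + 1) (vertical axes) in each sample by group, with the group mean of this scale as a line and open points for libraries with fewer than 20000 genes above 0. *Dhrs3* and *Aldh1a1* lie higher in GFP+ than in GFP- samples, and values at 0 are seen for *Aldh1a2*, *Rxra* and *Rarb*, in WT-GFP and APP-GFP astrocytes in open points only.

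APP-GFP and WT-GFP astrocytes were compared to ask what differs in astrocytes exposed to amyloid. Of the 8 members tested, 0 were called by limma, edgeR or DESeq2, and 0 had an unadjusted *p* under 0.05 with any of these tools. Of 22969 genes tested, 1.66% were called higher and 0.57% lower. By limma 542 of them had an unadjusted *p* under 0.05, and 1 had an adjusted *p* under 0.05. The higher genes made up 74.5% of the called ones, or 91.8% with equal upper quartiles, 62.5% with edgeR and 38.7% with DESeq2. The median log2 fold change was 0.02 for the members and 0.09 for all genes. Groups overlapped for each of these members. *Rlbp1*, for example, had a mean of 2296 ± 513 (SD, n = 4) with the transgenes and of 2270 ± 899 (SD, n = 7) without them (log2 fold change 0.09, 95% interval -0.58 to 0.77).

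The intervals differed in width between members. For *Dhrs3*, with 2973 to 4700 in APP-GFP astrocytes, the log2 fold change was -0.14 (95% interval -0.59 to 0.31), and for *Rdh5*, with 649 to 801, it was -0.05 (-0.62 to 0.53). For *Aldh1a1* it was 0.14 (-0.60 to 0.87), with the highest level of all samples, 9602, in APP-GFP replicate 2. For *Rdh10*, with 200 to 715, it was -0.39 (-1.20 to 0.43). *Dhrs3*, the reductase, thus had the narrowest interval.

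The low genes were less certain. *Rarb* had 180, 310, 112 and 128 in APP-GFP astrocytes and a log2 fold change of 2.58 (95% interval -0.87 to 6.03), but without the 4 libraries with few genes it was -0.23. *Rxra* had 133, 170, 186 and 336 and a log2 fold change of 1.89 (-1.30 to 5.09), which was 0.12 without those libraries. *Aldh1a2* had 34.4, 0, 126 and 104, with a log2 fold change of -0.67 (-4.93 to 3.58), and without those libraries it was called, at -1.39 (limma, adjusted *p* = 0.998).

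APP-SOCS3 and APP-GFP astrocytes were compared to ask what SOCS3 changes in APP mice. Of 22844 genes tested, 2.33% were called higher and 3.37% lower. By limma 1433 of them had an unadjusted *p* under 0.05, and 1 had an adjusted *p* under 0.05. Of the called genes 40.9% were higher, or 30.1% with edgeR. Of the 8 members other than *Rgr*, 0 were called by limma, edgeR or DESeq2, and 0 had an unadjusted *p* under 0.05 with any of these tools. The median over these 8 members was 0.055 and that of all genes 0.08. *Dhrs3* had 4637, 4377, 6197, 5842 and 4132 in APP-SOCS3 astrocytes and 4303, 2973, 4092 and 4700 in APP-GFP astrocytes, which overlapped (log2 fold change 0.33, 95% interval -0.06 to 0.72). Groups also overlapped for *Rlbp1* (0.25, interval -0.17 to 0.66), *Rdh5* (-0.24, -0.70 to 0.22), *Rdh10* (0.01, -0.73 to 0.76), *Aldh1a1* (0.16, -0.57 to 0.89) and *Rxra* (0.10, -0.70 to 0.89). For each of these 6 genes the interval lay between -1 and 1 on the log2 scale. Each interval also reached past a 1.5-fold change in at least 1 direction, so a change of that size is not excluded. *Rarb* had 67.3, 80.0, 67.0, 158 and 162 in APP-SOCS3 astrocytes, against 112 to 310 in APP-GFP astrocytes (-0.77, -1.81 to 0.28).

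*Aldh1a2* was lowest in APP-SOCS3 astrocytes. It had 19.9, 0, 14.0, 0 and 0 in the 5 samples, 32 reads in all, with a mean of 6.77 ± 9.51 (SD, n = 5). The mean was 65.9 ± 58.7 (SD, n = 4) for APP-GFP samples, and WT-GFP astrocytes had 136 ± 101 (SD, n = 7). Samples with reads in these groups were at 34.4 or above, and thus above the APP-SOCS3 samples, but 1 APP-GFP and 2 WT-GFP samples were at 0, so that the groups overlapped. These 3 samples at 0 were libraries with fewer than 20000 genes above 0.

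Against APP-GFP astrocytes the log2 fold change of *Aldh1a2* was -3.05 (95% interval -6.71 to 0.60) and was not called. Against WT-GFP astrocytes, a comparison added here to complete the description and sharing samples with the others, it was -3.72 ± 1.71 (SE, limma, adjusted *p* = 0.873, exact permutation *p* = 0.116). With a mean of 6.77 in APP-SOCS3 astrocytes, under the minimum of 10, *Aldh1a2* was tested in both comparisons through the other group alone. Its changes and calls are therefore given as a description. Against WT-GFP astrocytes it was called on its unadjusted *p* by limma, edgeR and DESeq2. Without the 4 libraries it was -4.62 against APP-GFP (limma, adjusted *p* = 0.700) and -6.02 against WT-GFP astrocytes (limma, adjusted *p* = 0.0685), and called in both comparisons. It lost its call against WT-GFP when any 1 of 8 samples was left out (WT-GFP replicates 2, 4, 5, 6 or 7, APP-SOCS3 replicates 2, 4 or 5), at log2 fold changes of -3.46 to -3.29. Of 22958 genes tested in that comparison, 3.19% were called higher and 2.02% lower. By limma 1310 of them had an unadjusted *p* under 0.05, and 7 had an adjusted *p* under 0.05. The higher genes were 61.2% of those called, or 83.8% with equal upper quartiles, 36.7% with edgeR and 29.2% with DESeq2. Of the 8 members other than *Rgr*, *Aldh1a2* was the 1 that was called, and the median over these 8 was 0.24 against 0.19 for all genes.

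The remaining 7 members overlapped between APP-SOCS3 and WT-GFP astrocytes. Log2 fold changes were 0.34 (95% interval -0.24 to 0.92) for *Rlbp1*, -0.29 (-0.81 to 0.24) for *Rdh5*, -0.37 (-0.94 to 0.20) for *Rdh10*, 0.19 (-0.21 to 0.59) for *Dhrs3* and 0.29 (-0.28 to 0.86) for *Aldh1a1*. They were 1.99 (-0.82 to 4.80) for *Rxra* and 1.81 (-1.25 to 4.87) for *Rarb*, but 0.15 for *Rxra* and -0.70 for *Rarb* without the 4 libraries. Without these libraries *Rlbp1* was called, at 0.61 (limma, adjusted *p* = 0.573). Mean *Rlbp1* levels were 2697 ± 416 (SD, n = 5) in APP-SOCS3 astrocytes, the highest of the GFP+ groups.

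**Figure D3:**
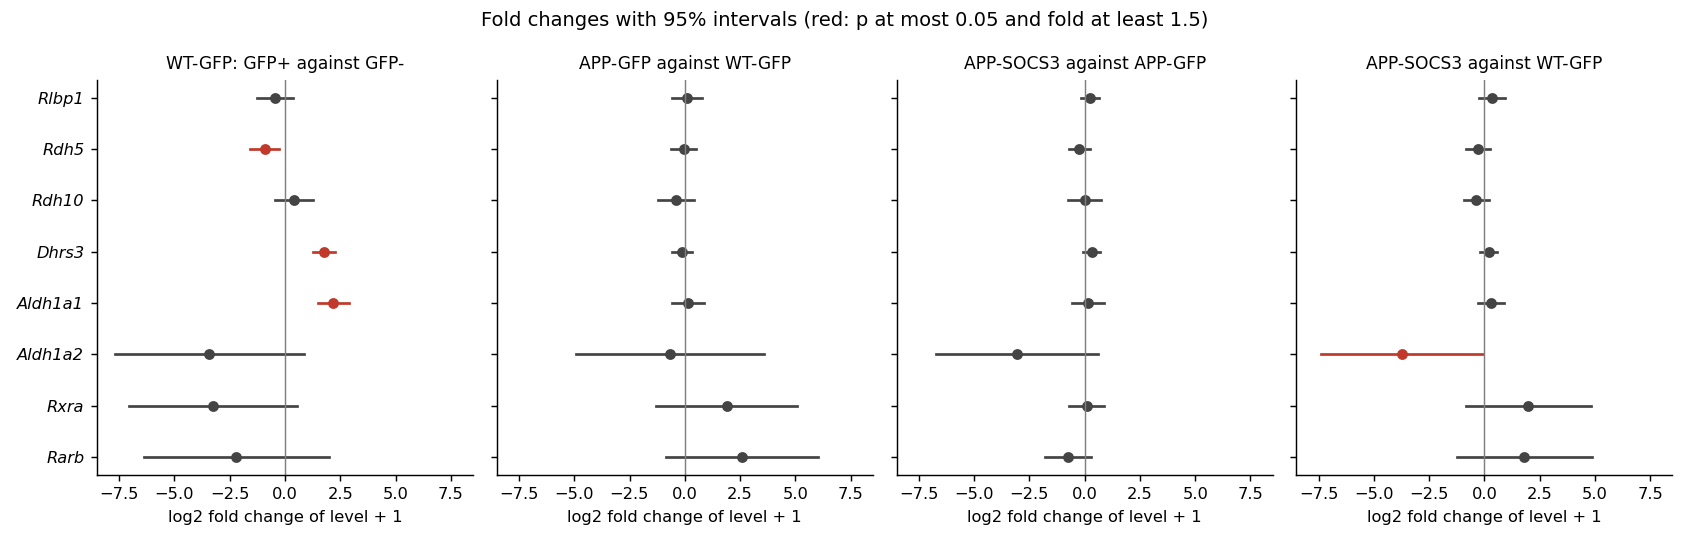
Log2 fold changes of level + 1 (horizontal axes) with 95% intervals from limma for 8 members in the 4 comparisons, red where called. *Dhrs3* and *Aldh1a1* are called higher and *Rdh5* lower in astrocytes than in GFP- cells. *Aldh1a2* is called lower in APP-SOCS3 than in WT-GFP astrocytes at -3.72, where it was tested through the WT-GFP group alone.

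Many markers of other cell types were also lower in APP-SOCS3 astrocytes, as *Aldh1a2* was. The summed level of 10 markers of leptomeningeal fibroblasts, cells of the meninges, was 969 to 1577 in APP-SOCS3, 1361 to 5210 in APP-GFP and 1379 to 3261 in WT-GFP astrocytes, against 12165 to 34130 for GFP- samples. Of these 10 genes 3 were called lower in APP-SOCS3 astrocytes against either group. Summed levels of 10 mural cell markers were 2300 to 3996, 4171 to 20991 and 3416 to 34731 in the GFP+ groups in the same order, with 5 of 10 called lower against either group, and 123386 to 161573 in GFP- cells. Summed levels of 10 endothelial markers were 1367 to 7336, 6600 to 37388 and 4631 to 43253, with 10 of 10 called lower against APP-GFP and 8 of 10 against WT-GFP astrocytes, while GFP- samples had 144657 to 231912. Of 10 microglia markers 10 were called lower against APP-GFP and 8 against WT-GFP astrocytes, with sums of 7534 to 13458, 14136 to 70376 and 9798 to 34337 in the same order and 107299 to 183328 in GFP- samples. Of 8 markers of oligodendrocyte precursor cells 4 and 2 were called lower, and of 9 neuronal markers tested 4 and 0. No gene of these 6 lists was called higher in either comparison. These calls rest on unadjusted *p* values, and 0 genes of these lists had an adjusted *p* under 0.05 by limma. Of all genes tested, 3.37% were called lower against APP-GFP and 2.02% against WT-GFP astrocytes. *Pdgfrb* (0.19) of the mural list and *Col1a1* (0.26) of the fibroblast list were above 0 against WT-GFP astrocytes without a call. Of choroid plexus markers 0 of 7 and 0 of 8 tested were called, and of oligodendrocyte markers 1 of 9 and 2 of 7 were called lower. In APP-GFP against WT-GFP astrocytes, medians were 0.12, -0.08 and -0.03 for the fibroblast, mural and endothelial lists, beside -0.67 for *Aldh1a2*. No gene of the fibroblast, mural, endothelial and microglia lists was at 0 in every sample of a group.

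The gene most like *Aldh1a2* over the 16 GFP+ samples was *Gm9946* (Pearson *r* = 0.95 of log2 levels), followed by *Kcnj8* (0.85), a gene of the mural list, and *Map3k1* (0.78). APP-GFP replicate 2 had the highest fibroblast sum of the GFP+ samples, 5210, and no *Aldh1a2* read, in a library with 16471 genes above 0. Its mural and endothelial sums were 20991 and 37388. The part of these other cells in the levels of *Aldh1a2* was not tested.

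**Figure D4:**
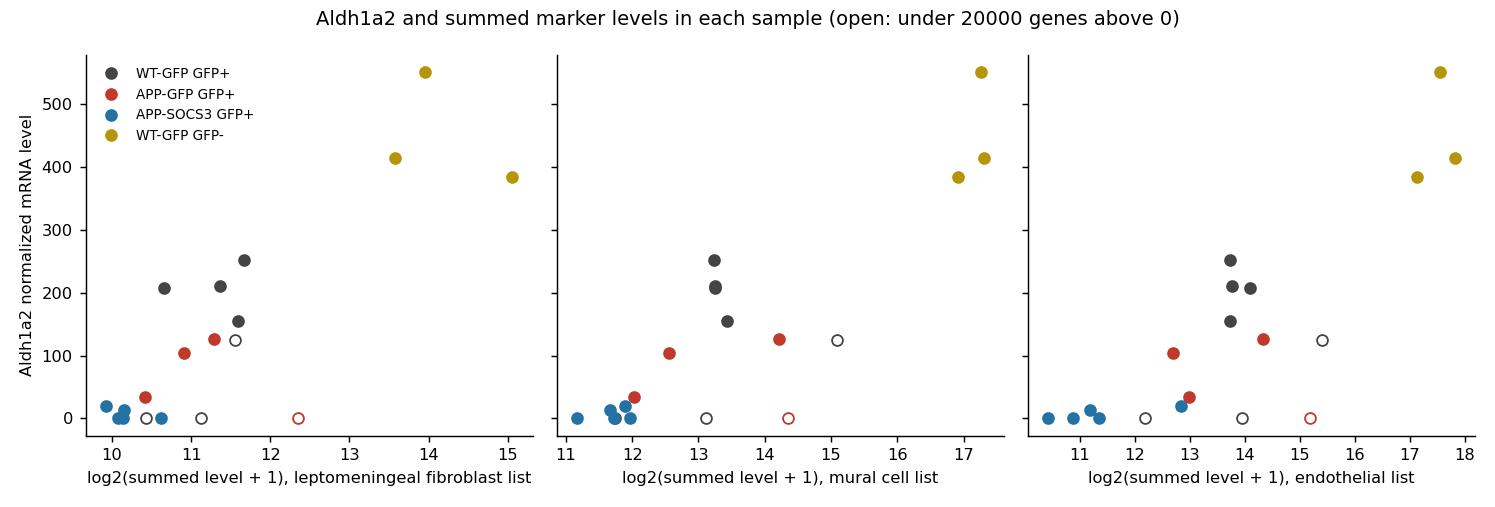
Normalized mRNA level of *Aldh1a2* (vertical axis) against the summed level of 10 markers of leptomeningeal fibroblasts, mural cells or endothelial cells as log2(sum + 1) (horizontal axes), each point a sample coloured by group, open for libraries with fewer than 20000 genes above 0. GFP- cells lie at the upper right, and APP-SOCS3 samples, between 0 and 19.9, at the lower left.

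Likeness over the same 16 samples was also described for the other members, as correlations that share library and depth. The genes nearest to *Rgr* were *Socs3* (*r* = 0.82), *Tspan15* (0.81) and *Kcnn2* (0.77), but *Socs3* is on the vector of APP-SOCS3 mice and *Rgr* was selected on its levels in these groups, so that this restates the group difference. *Rxra* and *Rarb* had the closest likeness, with *Prkar2a* (0.98) and *D16Ertd472e* (0.98), and both were near 0 in the same WT-GFP libraries. The first genes were *Taok3* (0.83) for *Rlbp1*, *Apold1* (0.77) for *Rdh5*, *Smarcad1* (0.89) for *Rdh10*, *Tmem51* (0.85) for *Dhrs3* and *Acbd3* (0.86) for *Aldh1a1*. No member was among the 3 genes most like another member.

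Other genes of retinoid metabolism, 45 of which were found, were described in the same comparisons. In the comparison of astrocytes with GFP- cells, 8 of 35 genes tested were called higher and 18 lower, beside 9.25% and 33.5% of all genes. Of the 35 genes 11 had a mean under 10 in 1 of the groups and were tested through the other, among them 1 of the higher and 9 of the lower genes, so nothing is read from these counts. The median was -2.42, which was the same to 2 decimals when the 2 genes at 0 in all astrocyte samples were set at the floor of 3 reads per library. *Fabp5*, a fatty acid binding protein that also carries retinoic acid, had 8076 ± 2483 (SD, n = 7) in astrocytes and 840 ± 396 (SD, n = 3) in GFP- cells (log2 fold change 3.31 ± 0.32, SE; limma, adjusted *p* = 2.0e-05). The retinol dehydrogenases and related reductases *Rdh11* (1.88 ± 0.26, SE), *Rdh14* (0.90 ± 0.20), *Dhrs4* (1.82 ± 0.27) and *Dhrs7* (1.70 ± 0.19) were higher, with adjusted *p* of 0.000317, 0.00651, 0.000486 and 6.4e-05 by limma. *Rpe65*, the isomerohydrolase of the visual cycle, had 209 ± 135 (SD, n = 7) in astrocytes and 8.61 ± 7.81 (SD, n = 3) in GFP- cells. Its log2 fold change was 4.16 ± 1.78 (SE, limma, adjusted *p* = 0.0964). Samples overlapped, with 0 to 365 in astrocytes and 0 to 15.2 in GFP- cells (exact permutation *p* = 0.1). With a mean under 10 in GFP- cells, *Rpe65* was tested through astrocytes alone, and its values are given as a description. *Dgat1* (0.63) and *Bco2* (0.93), which esterify retinol and cleave carotenoids, were also called higher. Their adjusted *p* values were 0.0706 and 0.0610 by limma.

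Genes lower in astrocytes included the uptake receptor *Stra6* (770 ± 522, SD, n = 7, against 5536 ± 1533, SD, n = 3; log2 fold change -3.10) and the carotenoid receptor *Scarb1* (-2.87). The retinol and retinoic acid carriers *Rbp4* (-6.03), *Rbp7* (-3.79), *Crabp1* (-5.82) and *Crabp2* (-4.19) had mean levels of 0.25 to 3.02 in astrocytes and 55.3 to 149 in GFP- cells. *Aldh1a3* (-4.26) and *Cyp26b1* (-5.93), which make and break down retinoic acid, had 10.6 and 1.68 in astrocytes and 75.2 and 113 in GFP- cells. *Adh1* (-6.89), *Akr1b3* (-0.97), *Abca4* (-6.88), *Opn3* (-3.65) and *Ttr* (-7.26) were also called lower, and the change of *Akr1b3* was smaller in size than the median of all genes. Adjusted *p* was 0.0764 for *Opn3* and 0.101 for *Ttr* by limma. Mean levels of *Opn3* were 14.1 in astrocytes and 35.6 in GFP- cells, and those of *Ttr* were 19676 and 75481. *Dhrs9* and *Rbp3* had 0 reads in all 7 astrocyte samples, with 0 to 47.7 and 4.36 to 4531 in GFP- cells. *Rbp4*, *Rbp7*, *Crabp1*, *Crabp2*, *Cyp26b1*, *Abca4*, *Dhrs9* and *Rbp3* had means under 10 in astrocytes. They were thus tested through GFP- cells alone, and their values are given as a description. *Ttr*, the plasma and choroid plexus carrier of retinol-binding protein, ranged from 0 to 81622 in astrocytes, where the sum of 8 choroid plexus markers ranged from 2.27 to 7785.

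Of the other nuclear receptors of retinoids, *Rara* (-2.42), *Rarg* (-2.11) and *Rxrg* (-6.08) were called lower in astrocytes, while *Rxrb*, with 478 ± 96.8 (SD, n = 7) in astrocytes, was not (-0.44). Of 9 receptors that pair with RXR, *Pparg* (-5.11), *Thra* (-1.03, less than the median of all genes) and *Nr4a2* (-6.46) were called lower and 0 higher, a share near the 33.5% of all genes. *Rxrg* and *Pparg*, with means of 7.10 and 3.44 in astrocytes, were tested through GFP- cells alone and are descriptions as well. *Nr1h2*, with the highest mean level, had 2399 ± 711 (SD, n = 7) in astrocytes and 2334 ± 365 (SD, n = 3) in GFP- cells. Among genes that were not called, *Adh5*, an alcohol dehydrogenase, had 4549 in astrocytes against 3222 in GFP- cells.

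**Figure D5:**
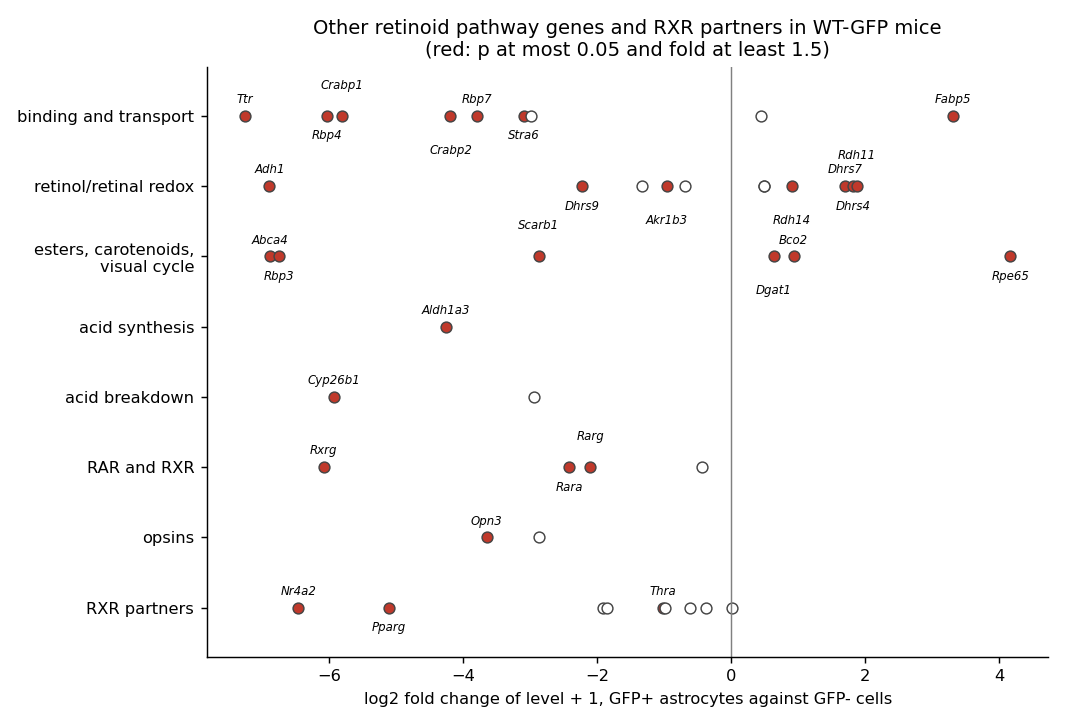
Log2 fold changes of level + 1 (horizontal axis) between GFP+ astrocytes and GFP- cells of WT-GFP mice for each gene tested of 7 lists of retinoid pathway genes and of the list of RXR partners (rows), red and named where called. Of the 35 pathway genes 8 lie to the right of 0 in red and 18 to the left. *Fabp5* is at 3.31, and *Rpe65*, tested through astrocytes alone, is at 4.16.

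Between GFP+ groups few of these genes were called. In APP-GFP against WT-GFP astrocytes 1 of 26 was higher and 0 were lower, beside 1.66% and 0.57% of all genes. It was *Rxrg*, with 13.6 to 207 in APP-GFP, 0 to 60.0 in APP-SOCS3 and 0 to 30.5 in WT-GFP astrocytes. Its mean in WT-GFP astrocytes was 7.10, so that it was tested through the other group alone, and its values are given as a description. In APP-SOCS3 against APP-GFP astrocytes 0 of 25 were higher and 2 lower, beside 2.33% and 3.37% of all genes. Against WT-GFP astrocytes 1 of 28 was higher, again *Rxrg*, and 2 were lower, beside 3.19% and 2.02% of all genes. No RXR partner was called in these 3 comparisons.

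*Stra6* and *Scarb1* were the genes called lower in both. *Stra6* had 84.3 ± 59.3 (SD, n = 5; 0 to 161) in APP-SOCS3, 881 ± 820 (SD, n = 4; 280 to 2021) in APP-GFP and 770 ± 522 (SD, n = 7; 273 to 1710) in WT-GFP astrocytes, so that APP-SOCS3 samples lay below all others. Its log2 fold change was -3.97 ± 1.35 against APP-GFP (SE, limma, adjusted *p* = 0.647, exact permutation *p* = 0.0159) and -3.98 ± 1.05 against WT-GFP (SE, limma, adjusted *p* = 0.332, exact permutation *p* = 0.00253). *Scarb1* had 306 ± 77.2 (SD, n = 5; 199 to 405), 899 ± 522 (SD, n = 4; 410 to 1613) and 567 ± 225 (SD, n = 7; 310 to 945), with log2 fold changes of -1.41 ± 0.38 and -0.83 ± 0.32 (SE) and adjusted *p* of 0.576 and 0.767 by limma. Both genes were several times higher in GFP- cells. The marker sums of endothelial, mural and microglial cells given above were also mostly lower in APP-SOCS3 astrocytes, but the part of these cells in the differences was not tested.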

How the data were processed

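RNAseq was performed by the authors on 19 samples of cells sorted by FACS from hippocampi. They prepared cDNA with a low-input kit and PCR, mapped reads to mm10 with STAR 2.4.0, counted them on constitutive regions of FAST DB genes and normalized with DESeq2. Values as deposited are thus a signal, the reads of each gene divided by the size factor of the sample. Strand use and treatment of reads matching several genes are not given in the sources used here. The 60567 listed genes hold 21293 that are at 0 in every sample. Whole reads were recovered from the values, 100% of which came out whole within 0.001 read.

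Groups and replicate numbers were taken from the labels. The members, gene lists and marker lists were chosen with earlier results of these data known. Members were matched by symbol. Pairs of groups were compared with limma 3.58.1 (R 4.3.3, trend option) on log2(level + 1), using the samples of that pair and no covariates. The mean had to reach 10 in 1 of the groups. Unadjusted *p* up to 0.05 with a change of 1.5-fold or more counted as a call, and Benjamini-Hochberg adjustment was over all genes tested. Exact permutation tests of mean log2 levels were 2-sided, with smallest *p* values of 0.0167, 0.00606, 0.0159 and 0.00253 in the order of the comparisons. A floor of 3 reads per library was used for genes at 0.

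All members were named in every comparison. Of the pathway lists, genes called in a comparison and the most abundant of the others were named, and some items are not reported here. The 3 genes most like each member by Pearson *r* over 16 GFP+ samples were sought among genes averaging 100 or more. Alternatives were pseudocounts of 0.1 and 10, no minimum level or 100, equal totals, equal upper quartiles, a fit on all 19 samples, quality weights for samples, edgeR 4.0.16 and DESeq2 1.42.0 on whole reads, adjusted *p* values, the replicate number as a block, and leaving out each sample. Leaving out the 4 libraries with fewer than 20000 genes above 0 was added after the data were seen. Positions are those of the authors, exon lengths of GENCODE M21 and promoter windows of RefSeq (GRCm38.p6).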

Additional observations from a re-analysis of the deposited data

Results flagged for a closer look

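*Rgr* in APP-GFP astrocytes was at 34.9 in replicate 4 and at 0 in the other 3 samples, so that the gap to the next sample took up the whole range of the group. Of 26 groups of member values checked this way, 1 stood out. With 3 samples at 0 the gap is the whole range whatever the level of replicate 4. *Rgr* was also selected on its levels, so nothing is read from this flag. Library depth of this sample was 26729305 reads on genes, with 24886 genes above 0.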

How the results depend on the processing

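*Rgr* is left out of these counts. Of the 4 called member comparisons, 90 values were recomputed. The direction and the call were kept in 77, the call was lost in 13, and 0 turned. Of 28 uncalled comparisons, 629 values were recomputed: 581 kept direction and side, 16 became calls and 32 had the opposite direction. The cause of these changes was not tested. Other scalings shifted the median of all genes. Equal upper quartiles shifted it by -0.44, 0.18, 0.16 and 0.33 in the 4 comparisons (astrocytes against GFP-, APP-GFP against WT-GFP, APP-SOCS3 against APP-GFP, APP-SOCS3 against WT-GFP) and equal totals by -0.18 in the first, edgeR by 0.94 and -0.17 and DESeq2 by 0.64 and -0.19 in the first and the last.

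Of the 8 members other than *Rgr*, 3, 0, 0 and 1 were called in this order. In the first comparison 5 were called with a pseudocount of 10, and 3 whichever sample was left out. In the second 1 was called without the 4 libraries with few genes (an alternative chosen after seeing the data), and 0 when a sample was left out. In the third 1 was called with a pseudocount of 10, with quality weights or without the 4 libraries. Leaving out a sample gave 0 to 1, with 1 without APP-GFP replicate 2. In the fourth 0 were called with adjusted *p* values, a pseudocount of 0.1 or a minimum of 100, 2 without the 4 libraries, and 0 to 1 when a sample was left out. The call of *Aldh1a2* there was also lost with equal upper quartiles (-3.64), where *Rlbp1* (0.69) was called instead.

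Genes called in all changed from 11419 to 6709 with a minimum of 100 in the first comparison. In the second they changed from 513 to 817 without a minimum, 123 with a minimum of 100, 991 with all 19 samples and 1100 with quality weights. In the third they changed from 1301 to 650 with a minimum of 100, and in the fourth from 1197 to 441 with a minimum of 100 and 2589 with quality weights.

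Deviations of same-numbered samples had correlations of -0.076 to 0.15. The same number was the closest partner for replicates 1 and 2 in the first comparison and replicate 2 in the second. It was closest for replicates 2, 3 and 4 in the third and for no replicate in the fourth. The labels name no shared mouse, so the numbers are not taken as pairs. A replicate block in the fit gave 5, 1, 0 and 0 called members other than *Rgr*. *Rdh5* lost its call against GFP- cells (-1.07). With the block, log2 fold changes turned to -0.25 for *Rlbp1*, -0.10 for *Aldh1a1* and 1.14 for *Aldh1a2* in the second comparison and to -0.024 for *Rdh10* in the third.

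Other opposite directions were all of uncalled members. Equal upper quartiles gave -0.047 for *Rdh10* in the first comparison, 0.13 for *Rdh5* and 0.034 for *Dhrs3* in the second and 0.062 for *Rdh5* in the fourth. Quality weights gave 0.043 for *Dhrs3* and -0.35 for *Aldh1a1* in the second, -0.20 for *Rdh10* in the third and -0.10 for *Rarb* in the fourth. *Rdh10* in the third was -0.091 with edgeR and -0.10 with DESeq2. Without the 4 libraries values were 0.31 for *Rarb* in the first, -0.13 for *Aldh1a1* and -0.23 for *Rarb* in the second, -0.32 for *Rdh10* in the third and -0.70 for *Rarb* in the fourth. Leaving out a sample gave -0.10 to 0.24 for *Rlbp1*, -0.17 to 0.026 for *Rdh5*, -0.21 to 0.33 for *Aldh1a1* and -1.57 to 0.90 for *Aldh1a2* in the second, and -0.32 to 0.29 for *Rdh10*, -0.037 to 0.51 for *Aldh1a1* and -0.084 to 0.36 for *Rxra* in the third. Levels under the floor of 3 reads per library (2.27 to 3.53) could not be told from 0.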

Other observations

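*Aldh1a7*, a close copy of *Aldh1a1*, was at 77.3 in 1 APP-SOCS3 sample and had a mean of 15.5 in that group, against 0.78 in WT-GFP and 0.24 in APP-GFP astrocytes.

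In GFP- cells, *Socs3* had a level of 14611 ± 3831 (SD, n = 3), beside 19463 ± 10281 (SD, n = 5) in APP-SOCS3 astrocytes. The mean of *Rgr* was 7.21 in GFP- cells and 36.2 in APP-SOCS3 astrocytes. The part of *Socs3* in these levels of *Rgr* was not tested.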
